A study of Solanum lycopersicum with 21 samples.

Results

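The comparison concerned the genomic sites bound by FUL2 when its partner was J and when its partner was TM3. The peaks of the FUL2-J complex and of the FUL2-TM3 complex were taken as 2 lists, a peak was called shared when it overlapped a peak of the other list by at least 1 bp, and the rest were called J-side or TM3-side. The FUL2-J list held 10449 peaks and the FUL2-TM3 list 10654, together 21103 of the 52995 peaks in the 6 lists of the series. The series measured DNA binding in vitro by DAP-seq, in which a transcription factor made in a wheat germ extract is mixed with genomic DNA fragments and recovered through a tag, and the DNA that stays with it is sequenced. For both complexes FUL2 carried the FLAG tag, the partner did not, and the DNA came from leaves of the tomato cultivar Moneyberg and had not been amplified. Each complex had 3 libraries, and 3 input libraries came from reactions without plasmid. Binding was thus measured on naked DNA, with no chromatin and none of the other proteins of a meristem.

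FUL2 is a FRUITFULL-like member of the AP1/FUL subfamily of MADS-domain proteins, which act in the floral transition and in meristem identity, and later in fruit. MADS-domain proteins bind DNA as dimers, and pairs of dimers can form tetramers, at sequences named CArG-boxes. J (JOINTLESS) is an SVP-like protein that keeps the tomato inflorescence meristem from returning to vegetative growth and is needed for the abscission zone of the pedicel. TM3 is a relative of SOC1, a promoter of flowering in Arabidopsis. MC (MACROCALYX), with which the same partners were combined in other lists of the series, is the tomato relative of AP1.

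A single list was deposited per complex, called on merged alignments, so no value per library exists here. Replicate error could therefore not be set beside the differences below, no test was run on them, and the intervals given are 95% intervals that cover counting error over peaks only. The names of the peaks carry different merging tools for the FUL2-J and FUL2-TM3 alignments, so the partner and the merging step cannot be told apart. A peak's strength was described by its fold enrichment over the local background and by its −log10 q, and was compared between the complexes as a percentile within its own list, with 0 for the weakest peak and 100 for the strongest.

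Most peaks of both lists were not shared. Of the FUL2-J peaks 30.3% were shared (3165 of 10449, interval 29.4% to 31.2%), which left 7284 J-side peaks. Of the FUL2-TM3 peaks 29.7% were shared (3160 of 10654, interval 28.8% to 30.5%), which left 7494 TM3-side peaks. These near-equal shares came from lists of different make-up. Leaving out summits within 1 Mb of chromosome ends, the FUL2-J list kept 10237 peaks, of which 29.9% were shared, and the FUL2-TM3 list kept 5736, of which 53.3% were shared (52.0% to 54.6%). Away from the chromosome ends, FUL2-TM3 therefore had fewer peaks than FUL2-J, and the larger share of them coincided with a FUL2-J peak.

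Where both complexes had a peak, the peaks lay on top of each other. Only 3 FUL2-TM3 peaks overlapped more than 1 FUL2-J peak, and taking each peak once gave 3160 pairs. The median overlap was 306 bp, 95.8% of the pairs overlapped by at least 50% of both peaks, and a single pair overlapped by less than 50 bp. Unshared peaks mostly had no called peak of the other list close by, at distances that also depend on how densely that list is spaced. The nearest FUL2-TM3 peak was a median of 44718 bp from a J-side peak, and 129 of the 7284 J-side peaks (1.77%) had one within 1 kb. For the TM3-side peaks farther than 1 Mb from an end, the nearest FUL2-J peak was a median of 27468 bp away, and 87 of 2678 (3.25%) had one within 1 kb.

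Shared peaks ranked higher than unshared peaks in both lists. Among FUL2-J peaks the median percentile by −log10 q was 64.4 for shared and 45.2 for J-side peaks, and a shared peak outranked a J-side peak in 63.3% of all such combinations. Among FUL2-TM3 peaks the medians were 70.5 for shared and 41.4 for TM3-side peaks, with 72.2% of the combinations in favour of the shared peak. By fold enrichment the FUL2-J medians were 60.9 and 46.3, and the FUL2-TM3 medians 76.5 and 38.8. The separation was thus wider in the FUL2-TM3 list on either measure. With percentiles taken anew without the chromosome ends, the medians by −log10 q were 65.5 for shared and 44.8 for J-side peaks, and 59.9 for shared and 39.5 for TM3-side peaks. By fold they were then 62.2 and 45.9 for FUL2-J and 60.1 and 38.5 for FUL2-TM3. Without the ends the separation was thus about as wide in both lists by −log10 q, and it stayed wider in the FUL2-TM3 list by fold.

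The shared share climbed with strength, but strong unshared peaks remained on both sides. In the weakest 10% of the FUL2-J peaks 21.4% were shared and in the strongest 10% the share was 55.8%. Among FUL2-TM3 peaks the shares were 8.63% in the weakest and 67.2% in the strongest 10%, and without the chromosome ends 29.3% and 81.7%. The strongest 25% of each list still held 1376 J-side peaks (18.9% of all J-side peaks) and 1246 TM3-side peaks (16.6% of all TM3-side peaks). Within 1 Mb of an end lay 18 of these J-side and 592 of these TM3-side peaks, which left 1358 J-side and 654 TM3-side peaks.

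**Figure D1:**
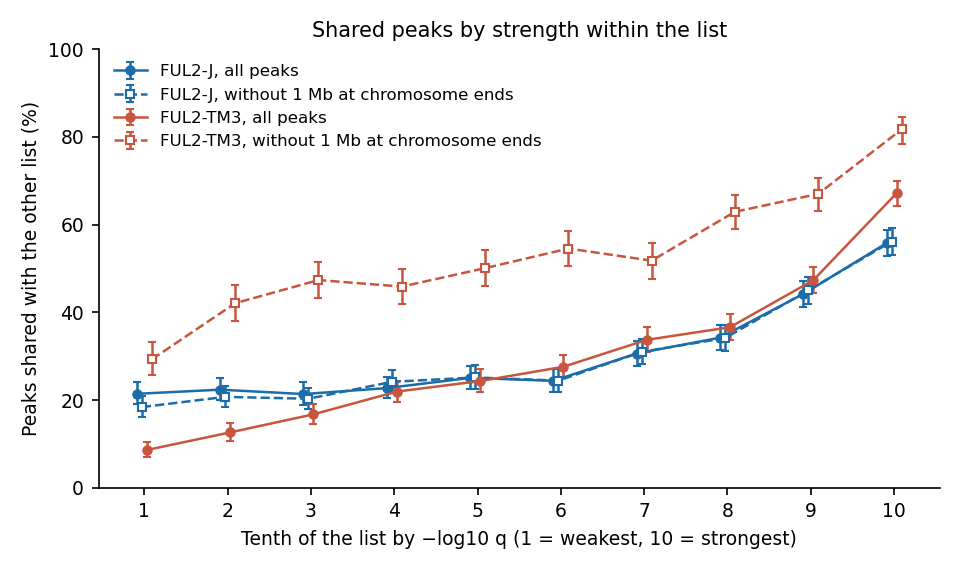
The x axis gives steps of 10% of each list by −log10 q, from weakest to strongest, and the y axis the percentage of peaks shared with the other list, for FUL2-J (blue) and FUL2-TM3 (red), with all peaks (filled circles) and without the peaks within 1 Mb of chromosome ends (open squares); bars are 95% Wilson intervals. The FUL2-J curve reached 55.8% in the strongest 10% with all peaks, and the FUL2-TM3 curve reached 67.2% with all peaks and 81.7% without the chromosome ends.

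The strongest peaks common to both complexes were recovered by every list of the series. The pair at chr1:69878597-69879067 (coordinates of the FUL2-J peak, Moneyberg assembly), which the authors' annotation puts in a promoter class of Solyc01g065500, had a fold of 9.56 and a −log10 q of 113 with FUL2-J, against a fold of 7.16 and a −log10 q of 66.9 with FUL2-TM3. The summits lay 2 bp apart. At chr5:49799425-49799834 the fold was 12.1 with FUL2-J and 9.55 with FUL2-TM3, and the summits lay 50 bp apart. At chr8:15955804-15956258 it was 10.6 with FUL2-J and 9.08 with FUL2-TM3. All 3 pairs also had a peak in the other 4 lists. The strongest J-side peaks, at chr6:19834205-19834656, chr4:26464370-26464825 and chr2:2774221-2774836, stood at percentiles 99.9 in the FUL2-J list, and the nearest FUL2-TM3 peak was 18003, 86185 and 81768 bp away. Each of them overlapped a peak of MC-J and of no other list. The strongest TM3-side peaks away from the ends were weaker. That at chr9:75217307-75217749 had a fold of 5.53 and a −log10 q of 40.4 and no counterpart in any other list. Those at chr6:8385051-8385417 (fold 5.54) and chr2:13409704-13410060 (fold 5.65) overlapped a peak of MC-TM3 and of no other list.

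On chromosome 1 the authors' annotation names the genes next to FUL2-J peaks. Of the 1168 FUL2-J peaks there, 78.7% were annotated as distal intergenic. The promoter class nearest to a gene start held 56 of them (4.79%), with 4.76% of J-side and 4.89% of shared peaks. The sets were less alike in the other classes. All promoter classes together held 135 of 861 J-side peaks (15.7%, interval 13.4% to 18.3%). They held 34 of 307 shared peaks (11.1%, 8.03% to 15.1%), so the intervals overlapped. Shared peaks were more often distal intergenic, at 258 of 307 against 661 of 861 J-side peaks. These differences were not tested. The strongest J-side peaks in the promoter class nearest to a gene start were those of Solyc01g058360 at chr1:64933936-64934290 (fold 7.31), Solyc01g068540 at chr1:75950343-75950714 (fold 5.24) and Solyc01g112060, annotated as an NmrA family protein, at chr1:96092046-96092474 (fold 6.66). Each of these peaks also overlapped a peak of MC-J and of no other list. The strongest shared peaks of the class were at Solyc01g100140, with a fold of 7.15 with FUL2-J and 5.35 with FUL2-TM3, at Solyc01g016660, with 6.59 with FUL2-J and 5.57 with FUL2-TM3, and at Solyc01g105590, with 5.35 with FUL2-J and 3.45 with FUL2-TM3. All 3 shared peaks overlapped peaks of both MC-J and MC-TM3. Annotation of the TM3-side peaks was not used here.

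Within the shared pairs the complexes ranked sites in a loosely similar order. The median fold was 4.45 with FUL2-J and 3.97 with FUL2-TM3, and it was higher with FUL2-J in 2193 of 3160 pairs (69.4%). The median −log10 q was 20.0 with FUL2-J and 14.7 with FUL2-TM3. The −log10 q also depends on sequencing depth, whereas the fold was taken with reads scaled to the input. Percentiles were therefore compared as well. The percentiles by −log10 q lay within 25 points of each other in 1878 pairs (59.4%), and 766 pairs were in the strongest 25% of both lists. As a description, Spearman's rank correlation across the 3160 pairs was 0.54 for fold and 0.40 for −log10 q. Per chromosome the correlation for fold ran between 0.49 and 0.61. The pairs share the genome sequence at each site and an input control made in the same way, so this value is not a measure of the complexes alone.

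Which complex ranked a shared site higher depended on the chromosome ends. The percentile with FUL2-J minus that with FUL2-TM3 had a median of −3.45 over all pairs (quartiles −25.5 and 12.4). With percentiles taken anew without the chromosome ends the median was 2.29 (3058 pairs), which is the opposite sign. By fold these medians were −9.98 over all pairs and 0.35 taken anew without the ends. Over the 102 pairs within 1 Mb of an end the median was −58.7, and 55 of the 102 ranked higher with FUL2-TM3 by over 50 points. Neither complex thus had a uniform lead in rank at shared sites. The fold itself was higher with FUL2-J in 71.0% of the pairs away from the ends and in 21.6% of those within 1 Mb.

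A minority of shared sites differed widely in rank. In 129 pairs the FUL2-J percentile was higher by over 50 points, and in 292 pairs the FUL2-TM3 percentile was. The widest gap in favour of FUL2-J among pairs on the chromosomes was at chr2:19824557-19825059, at percentile 96.1 with FUL2-J (fold 5.85) and 2.77 with FUL2-TM3 (fold 2.58), with summits 2 bp apart. The next was at chr8:23939497-23939910, at 89.9 with FUL2-J and 7.12 with FUL2-TM3. In favour of FUL2-TM3, the pair at chr9:433083-433430 stood at 1.88 with FUL2-J and 96.4 with FUL2-TM3, and that at chr9:38456342-38456662 at 2.58 with FUL2-J and 95.3 with FUL2-TM3. The last of these lay 38.5 Mb from an end, so wide gaps towards FUL2-TM3 occurred away from the ends too. There, 127 pairs stood over 50 points higher with FUL2-J and 237 with FUL2-TM3, and with percentiles taken anew without the ends 231 did with FUL2-J and 159 with FUL2-TM3. The balance of wide gaps thus turned with the treatment of the chromosome ends as well.

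**Figure D2:**
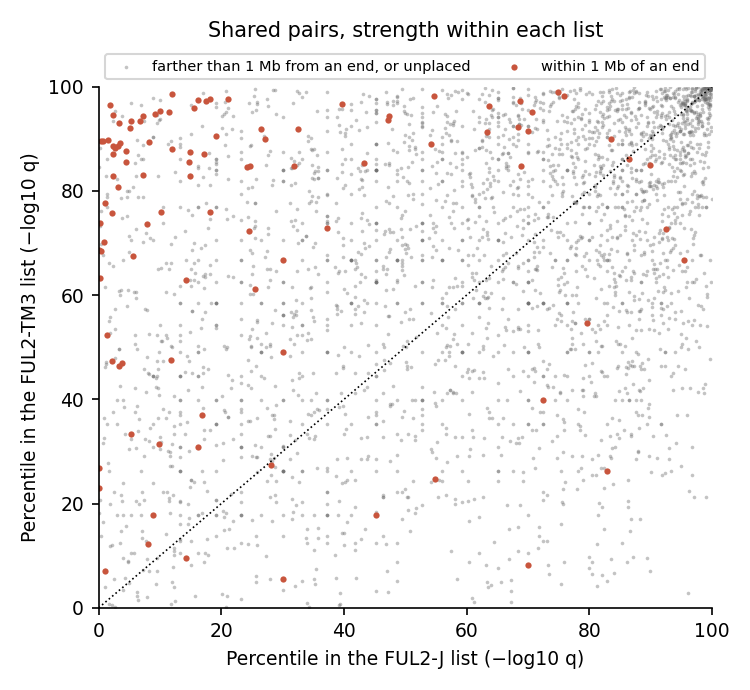
Each point is 1 of the 3160 shared pairs, with its FUL2-J percentile by −log10 q on the x axis and its FUL2-TM3 percentile on the y axis; red points lie within 1 Mb of a chromosome end and the dotted line marks equal percentiles. The points thicken in the upper right corner, where 766 pairs were in the strongest 25% of both lists, and the 102 pairs near chromosome ends gather above the line on the left.

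The MC lists, which were not used to choose these pairs, were read at the same sites. Of the 129 pairs that ranked higher with FUL2-J by over 50 points, 91.5% had an MC-J peak and 85.3% an MC-TM3 peak. Of the 292 that ranked higher with FUL2-TM3, 46.2% had an MC-J peak (40.6% to 52.0%) and 82.5% an MC-TM3 peak. Away from the ends these last shares were 51.5% and 79.3%. Over all 3160 shared pairs these shares were 74.5% for MC-J and 85.8% for MC-TM3. Over the whole lists, 59.7% of all FUL2-J peaks overlapped an MC-J peak and 49.5% an MC-TM3 peak, and of all FUL2-TM3 peaks 25.2% overlapped an MC-J peak and 45.3% an MC-TM3 peak. The share with an MC-J peak was thus larger at the sites that ranked higher with FUL2-J than at those that ranked higher with FUL2-TM3. That of all pairs lay in between, and the shares with an MC-TM3 peak lay near that of all pairs in both sets. The sets also differed in FUL2-J strength, with median percentiles of 83.4 and 16.5. MC-J cover rose with that strength. Among J-side peaks it was 82.8% in the strongest 25% of the FUL2-J list and 38.8% in the weakest 25%. Among shared peaks in the strongest 25% it was 93.8%, so cover also differed between shared and J-side peaks of similar strength. All of these lists were called against an input of the same kind, so they are not independent of each other. The difference in MC-J cover and the part of strength in it were not tested.

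The summits of shared pairs coincided closely. The median distance between the summits was 22 bp (quartiles 10 and 50 bp). It was at most 10 bp in 27.3% of the pairs and at most 50 bp in 75.1%, and it exceeded 100 bp in 324 pairs (10.3%). There was no common direction, since the signed shift, FUL2-J minus FUL2-TM3, had a median of −1 bp (quartiles −23 and 21 bp). The distance narrowed with strength, with medians of 39, 24, 19 and 16 bp over 4 equal groups of the pairs from the weakest to the strongest mean percentile. Per chromosome the median ran between 18 and 30 bp.

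Shared FUL2-J peaks were slightly wider than their FUL2-TM3 partners. The median width was 369 bp with FUL2-J and 331 bp with FUL2-TM3, with a median difference within pairs of 30 bp, and the FUL2-J peak was wider in 2113 pairs (66.9%). The 102 pairs near chromosome ends went the other way, at 358 bp with FUL2-J and 636.5 bp with FUL2-TM3. J-side peaks had a median width of 320 bp. TM3-side peaks had 303 bp away from the ends and 539 bp within 1 Mb of them. No FUL2-J peak was wider than 1000 bp, against 959 FUL2-TM3 peaks, of which 894 lay within 1 Mb of an end, and the widest spanned 10050 bp.

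The unshared peaks of the complexes lay in different places on the chromosomes. Within 1 Mb of a chromosome end lay 108 of the 7284 J-side peaks (1.48%, interval 1.23% to 1.79%), against 4816 of the 7494 TM3-side peaks (64.3%, 63.2% to 65.3%). These stretches make up 2.91% of the 824 Mb of placed sequence. In the outermost 0.25 Mb the density was 8 peaks per Mb for FUL2-J and 304 for FUL2-TM3. From 0.5 to 1 Mb it was 7.92 for FUL2-J and 104 for FUL2-TM3, and from 1 to 2 Mb it was 9 for FUL2-J and 7.12 for FUL2-TM3. The excess of FUL2-TM3 over FUL2-J peaks thus ended near 1 Mb. The density of FUL2-TM3 peaks was still higher from 1 to 2 Mb than from 2 to 5 Mb. From 2 Mb inwards both complexes became denser towards the interior, with 8.01 peaks per Mb from 2 to 5 Mb and 16.0 beyond 20 Mb for FUL2-J, and 3.97 and 8.33 for FUL2-TM3.

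**Figure D3:**
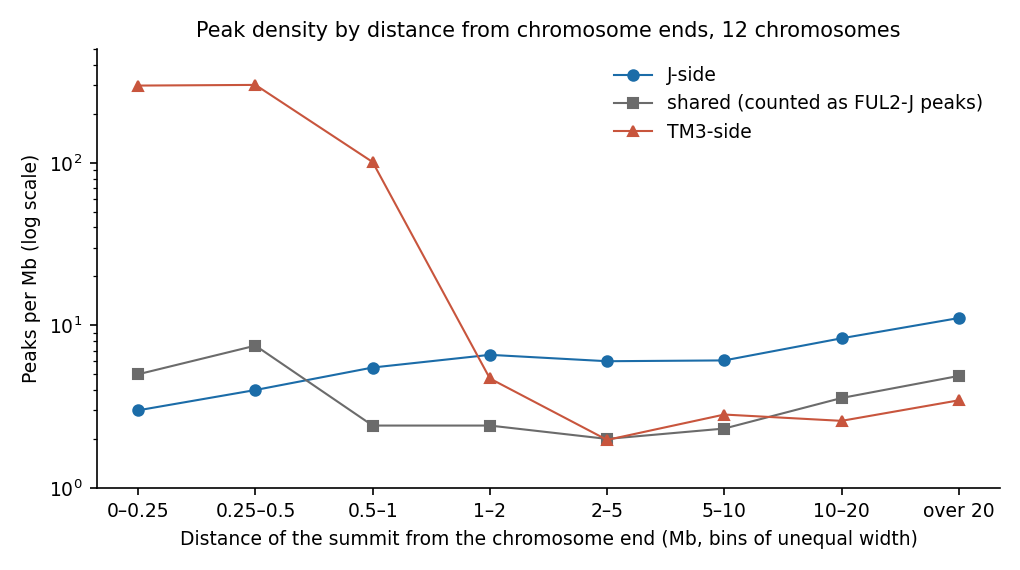
The x axis gives bins of distance between the summit and the nearer chromosome end in Mb, and the y axis peaks per Mb on a log scale, for J-side (blue circles), shared (grey squares) and TM3-side peaks (red triangles) of the 12 chromosomes. TM3-side peaks stood at 299 and 302 per Mb in the outermost bins and fell below J-side peaks from 1 Mb inwards, while J-side peaks rose to 11.1 per Mb beyond 20 Mb.

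The crowding was found at most chromosome ends but not at all of them. FUL2-J had 1 to 16 peaks within 1 Mb of each of the 24 ends, with a median of 9, and the TM3-side peaks numbered 1 to 610, with a median of 178.5. FUL2-TM3 had more peaks than FUL2-J at 20 ends and fewer at 3. At 17 ends there were 100 or more TM3-side peaks, and at 4 there were fewer than 20. The fullest was the start of chromosome 5, with 11 FUL2-J and 619 FUL2-TM3 peaks. Ends of 1 chromosome could differ, as on chromosome 1, where the start had 1 FUL2-J and 269 FUL2-TM3 peaks and the finish 8 FUL2-J and 2 FUL2-TM3 peaks. On chromosome 2 both ends were sparse, with 13 FUL2-J and 13 FUL2-TM3 peaks at the start and 9 FUL2-J and 4 FUL2-TM3 peaks at the finish.

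**Figure D4:**
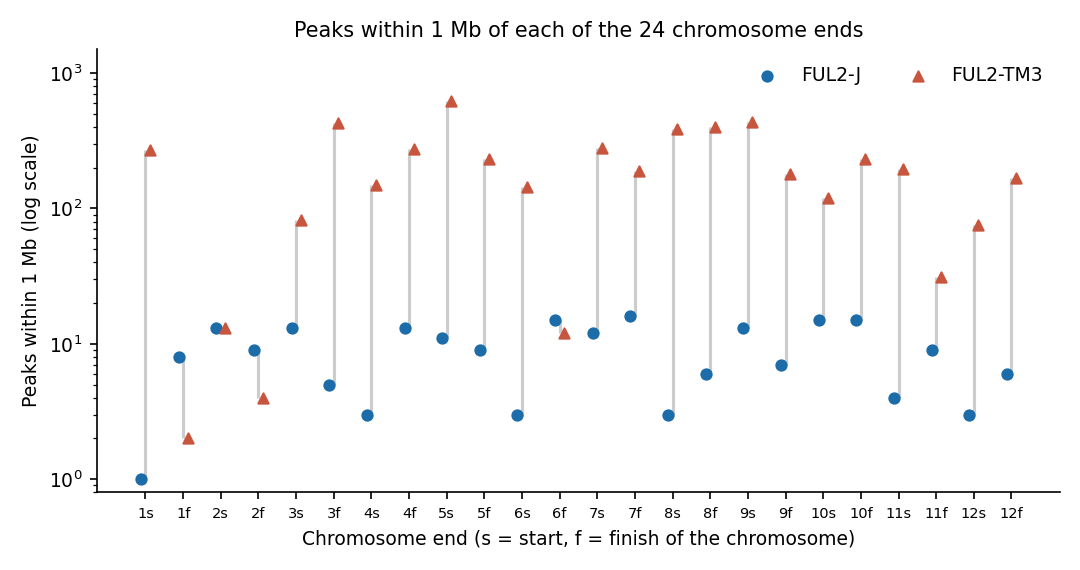
The x axis lists the 24 chromosome ends (s, start; f, finish) and the y axis the number of peaks within 1 Mb on a log scale, for FUL2-J (blue circles) and FUL2-TM3 (red triangles), joined by a grey line for each end. FUL2-J stayed between 1 and 16 peaks, and FUL2-TM3 was higher at 20 ends, up to 619 at the start of chromosome 5.

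At the ends the FUL2-TM3 peaks formed dense runs. The gap to the next peak of the same list had a median of 43617 bp for FUL2-J and 698.5 bp for FUL2-TM3 within 1 Mb of an end, and of 44143 bp for FUL2-J and 74780 bp for FUL2-TM3 farther away. Runs of at least 5 peaks less than 2000 bp apart held none of the 212 FUL2-J peaks near ends, against 3750 of the 4918 FUL2-TM3 peaks (76.3%). The longest such run had 226 peaks over 332 kb, at chr5:353527-685404, and its peaks covered 67.8% of the stretch. Within that run lay chr5:582861-586098, 1 of the 3 strongest TM3-side peaks near an end, 3238 bp wide with a fold of 4.39. The other 2, at chr4:67755445-67756400 and chr12:288241-289243, had folds of 4.66 and 5.42, and all 3 overlapped an MC-TM3 peak and no peak of another list.

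The FUL2-TM3 peaks at the ends stood on a higher background. The fold and the p-value of each peak were solved for the pileup of reads at the summit and for the local background, both at the scale of the input. The background had a median of 11.3 for J-side peaks and 19.2 for TM3-side peaks within 1 Mb of an end, and of 12.1 for J-side and 14.0 for TM3-side peaks farther away. At shared sites within 1 Mb of an end it was 18.05 with FUL2-J and 17.8 with FUL2-TM3, so the background was raised there at shared and at TM3-side peaks alike. Over 2 times the background common to the list was found at 28.3% of the shared FUL2-J peaks near ends, 30.4% of the shared FUL2-TM3 peaks and 36.5% of the TM3-side peaks. The pileup of TM3-side peaks had a median of 60.4 at the ends and 53.4 away from them. Their fold had a median of 2.93 at the ends and 3.53 away from them. The part of the input-derived background in the crowding was not tested.

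At shared sites the background was close in both lists. It agreed within 5% in 1923 of the 3024 pairs solved in both lists (63.6%), and the median ratio of FUL2-J over FUL2-TM3 was 1.03. The pileup was a median of 1.15 times as high with FUL2-J as with FUL2-TM3, and within 1 Mb of an end 0.81 times. The summits of shared peaks held a median of 102 reads with FUL2-J and 82 with FUL2-TM3, those of J-side peaks 87, and those of TM3-side peaks away from the ends 77. The total treatment reads, recovered in the same way, were 1.53 times the input for FUL2-J and 1.44 times for FUL2-TM3. The part of this depth difference in the lower number of FUL2-TM3 peaks away from the ends was not tested.

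Away from the ends the difference in number had the same direction on all 12 chromosomes. FUL2-J had 11.0 to 13.6 peaks per Mb per chromosome and FUL2-TM3 5.66 to 7.98. The ratio of FUL2-J to FUL2-TM3 peaks ran between 1.65 on chromosome 9 and 2.12 on chromosome 1. The shared share of FUL2-J peaks ran between 26.4% on chromosome 1 and 32.5% on chromosome 9, and that of FUL2-TM3 peaks between 49.7% on chromosome 3 and 60.6% on chromosome 6. No chromosome thus reversed the order of the complexes in number. The order in shared share follows from the order in number, because nearly all overlaps were between 1 peak of each list. With the ends included, FUL2-J had more peaks than FUL2-TM3 on 6 chromosomes and fewer on 6, with a ratio of 0.65 on chromosome 5. On the unplaced sequence FUL2-J had 87 peaks, of which 44 were shared, and FUL2-TM3 had 319, of which 44 were shared.

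The lists of MC with the same partners covered the unshared FUL2 peaks along the partner. J-side peaks overlapped an MC-J peak in 53.2% and an MC-TM3 peak in 33.8%, against the 59.7% and 49.5% of all FUL2-J peaks given above. TM3-side peaks away from the ends overlapped an MC-J peak in 11.9% and an MC-TM3 peak in 40.2%, against 45.9% and 64.4% of all FUL2-TM3 peaks away from the ends. The unshared peaks of both sides were thus covered less than their lists as a whole. J-side peaks with an MC-J but no MC-TM3 peak numbered 2546 of 7284, against 27.1% of all FUL2-J peaks, and the reverse made up 15.5%, against 17.0% of all FUL2-J peaks. For TM3-side peaks away from the ends, 5.27% had an MC-J but no MC-TM3 peak and 33.5% the reverse, against 7.36% and 25.8% of all FUL2-TM3 peaks away from the ends. On each side the MC list with the same partner thus covered more of the peaks than the MC list with the other partner. The same order held over each whole FUL2 list, so it was not particular to the unshared peaks. The lead was 19.5 percentage points for J-side peaks, 23.8 for all TM3-side peaks and 28.3 for those away from the ends. All TM3-side peaks overlapped an MC-J peak in 4.47% and an MC-TM3 peak in 28.2%, against 25.2% and 45.3% of all FUL2-TM3 peaks. With the strongest 4000 peaks of each MC list the lead was 11.3 for J-side and 5.80 for all TM3-side peaks. Among the J-side peaks in the strongest 25% of the FUL2-J list, 82.8% overlapped an MC-J peak and 44.1% an MC-TM3 peak, against 88.0% and 67.4% of all FUL2-J peaks of that strength.

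J2 is a SEPALLATA-like MADS-domain protein that acts in the maturation of floral meristems. Its lists were shorter, with 4940 peaks for FUL2-J2 and 4677 for MC-J2, against 10818 for MC-J and 11457 for MC-TM3. Their cover of the unshared peaks is therefore not set against that of the longer lists. FUL2-J2 peaks overlapped 21.7% of J-side peaks, against 32.4% of all FUL2-J peaks. They overlapped 10.2% of TM3-side peaks away from the ends, against 35.7% of all FUL2-TM3 peaks away from the ends. MC-J2 peaks overlapped 20.1% of J-side peaks, against 29.8% of all FUL2-J peaks. They overlapped 7.32% of TM3-side peaks away from the ends, against 31.9% of all FUL2-TM3 peaks away from the ends. Shared sites were the ones found most widely. Of the shared FUL2-J peaks 74.4% overlapped an MC-J peak, 85.8% an MC-TM3 peak and 57.0% a FUL2-J2 peak. A peak in all other 4 lists was found for 40.8% of them, against 17.7% of all FUL2-J peaks and 7.66% of J-side peaks. Shared peaks also ranked higher. Within the strongest 25% of the FUL2-J list this share was 67.5% for shared and 19.0% for J-side peaks. None of the other 4 lists had a peak at 4.49% of shared and 28.0% of J-side peaks, against 20.8% of all FUL2-J peaks. For TM3-side peaks away from the ends this was 53.0%, against 27.1% of all FUL2-TM3 peaks away from the ends.

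The crowded ends were found again with MC-TM3, to a lesser extent. Within 1 Mb of each end MC-J had 1 to 19 peaks and MC-TM3 11 to 215, with a median of 6 for MC-J and 43 for MC-TM3. Of the 4816 TM3-side peaks at the ends 16 overlapped an MC-J peak (0.33%) and 1039 an MC-TM3 peak (21.6%), and 78.3% overlapped no peak of the other lists. The 104 FUL2-J peaks at the ends that were shared with FUL2-TM3 overlapped an MC-J peak in 39.4% and an MC-TM3 peak in 93.3%. For the 108 J-side peaks at the ends these shares were 51.9% and 45.4%, and for all FUL2-J peaks 59.7% and 49.5%.

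**Figure D5:**
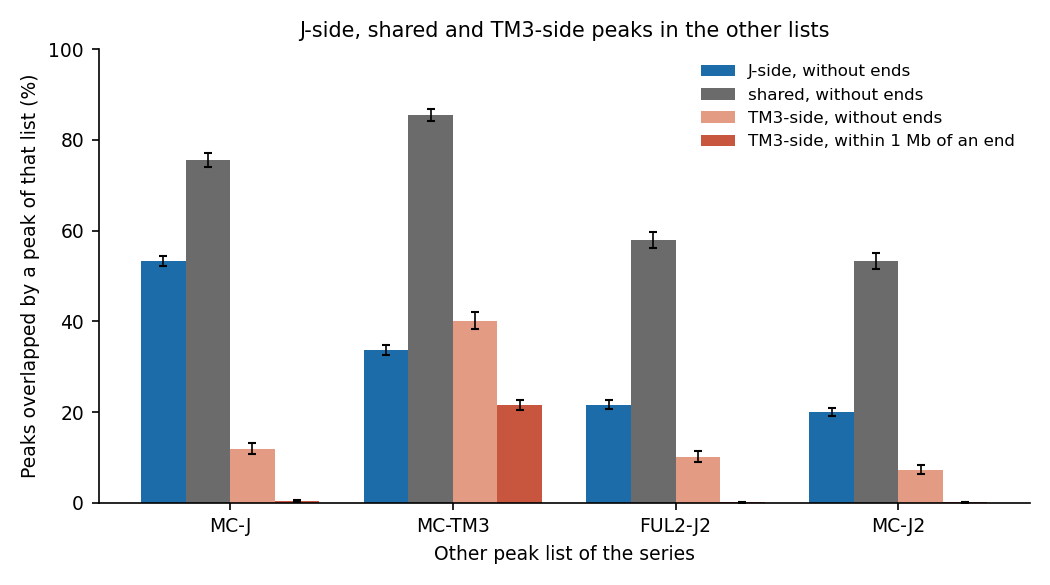
The y axis gives the percentage of peaks overlapped by a peak of each other list of the series (x axis), for J-side, shared (counted as FUL2-J peaks) and TM3-side peaks away from the ends and for TM3-side peaks within 1 Mb of an end; bars carry 95% Wilson intervals. MC-J covered 53.3% of J-side and 11.9% of TM3-side peaks away from the ends, and MC-TM3 33.6% and 40.2% of them.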

How the data were processed

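DAP-seq peaks of the FUL2-J and FUL2-TM3 complexes were compared by position. The authors used Trim Galore for trimming, HISAT2 for alignment to the Moneyberg genome and MACS2 for calling narrow peaks on the alignments merged for each complex, against the input; versions are not given in the sources used here. The names of the peaks refer to a merge of 2 alignments per list, made with MergeSamFiles for FUL2-J and with samtools for FUL2-TM3, so the number of libraries behind a list is not settled. The deposited lists give each peak's position and summit, a score (not used), the fold enrichment over the local background (a ratio), a −log10 p and a −log10 q, without counts or values per library. The lowest −log10 q was 4.07 for FUL2-J and 4.01 for FUL2-TM3.

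Lists were read with pandas 2.3.3 and numpy 2.4.6 under Python 3.11.15, intervals came from scipy 1.17.1, and plots were drawn with matplotlib 3.10.9. Where peaks overlapped several, the pair with the nearest summits was kept. Chromosome lengths were the last peak position of any list, and unplaced sequence was counted with the peaks away from the ends. Shares have Wilson intervals. Pileup and background were solved from MACS2's formulas, the fold with a pseudocount of 1 and backgrounds of at least 5 considered. A read was worth 0.652 (FUL2-J) and 0.694 (FUL2-TM3) at the input's scale, 97.0% and 95.1% of the peaks were solved, and of 1901 FUL2-J and 703 FUL2-TM3 peaks held out 99.9% and 100% gave whole reads within 0.1. The method was tested on simulated data. As 1 list exists per complex, no p-value was computed.

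Named peaks followed a rule: the 3 shared pairs whose lower percentile by −log10 q was highest, the 3 J-side and TM3-side peaks with the highest −log10 q (TM3-side at and away from the ends), the 2 pairs with the widest percentile gap each way, and on chromosome 1 the 3 strongest shared and J-side FUL2-J peaks in the nearest promoter class. The peaks compared, the rules and the thresholds were chosen with earlier results of these data known. Gene names were not matched, and sequences under the peaks were not analysed here.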

Additional observations from a re-analysis of the deposited data

How the results depend on the processing

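No paired analysis was possible because each deposited list pools the libraries of a complex; for the same reason no library could be left out. Of 54 alternatives over 12 results, 26 left the value within its 95% interval, 27 moved it and 1 turned its sign; causes were not tested. The shared share of FUL2-J peaks (30.3%) was 29.0% with an overlap of 50% of both peaks, 27.1% with summits within 100 bp, 27.0% at a −log10 q of at least 10 and 28.7% at a fold of at least 3. That of FUL2-TM3 peaks (29.7%) was 28.4%, 26.6%, 35.6% and 38.8% under the same settings in turn, 53.3% without 1 Mb and 54.1% without 5 Mb at the ends, and, in a setting chosen after seeing the data, 32.1% without peaks wider than 1000 bp. By fold, shared minus unshared median percentiles were 14.6 for FUL2-J (19.2 by −log10 q) and 37.6 for FUL2-TM3 (29.1). By −log10 q without the ends, it was 20.3 for FUL2-TM3. The median FUL2-J minus FUL2-TM3 percentile of pairs (−3.45) was −9.98 by fold and 2.29 without the ends, both settings chosen after seeing the data. The rank correlation of pairs was 0.54 by fold and 0.40 by −log10 q, and the summit distance was 20 bp at a −log10 q of at least 10. The share at the ends was 0.58% of J-side and 48.1% of TM3-side peaks within 0.5 Mb, 3.65% of J-side and 65.8% of TM3-side peaks within 2 Mb, and for TM3-side peaks 55.5% at a −log10 q of at least 10 and, added after seeing the data, 62.0% without chromosome 5. MC-J minus MC-TM3 cover of J-side peaks (19.5 percentage points) was 11.3 with the strongest 4000 peaks of each MC list. MC-TM3 minus MC-J cover of TM3-side peaks (23.8) was 5.80 with them, 16.5 with an overlap of 50% of both peaks and 28.3 without the ends. The lists stop at the authors' threshold, so an unshared peak may lie just under it in the other complex, and depth limits how many weak peaks were called.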

Other observations

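The longest run of FUL2-J peaks, at gaps under 2000 bp and farther than 1 Mb from an end, had 17 peaks over 24.1 kb at chr8:67330092-67354232. The longest run of FUL2-TM3 peaks outside the chromosome ends was on unplaced sequence and had 55 peaks over 67.1 kb. Runs of at least 5 peaks there held 22 of the 10237 FUL2-J peaks and 291 of the 5736 FUL2-TM3 peaks.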
